A study of Rattus norvegicus with 19 samples.

Results

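The genes of cholesterol and fatty acid synthesis were followed in single T11 dorsal root ganglia, where the sensory neuron cell bodies of 1 thoracic segment lie among satellite glia, Schwann cells and other cells. The module was set by a list of 32 gene symbols: the enzymes from acetyl-CoA to cholesterol, the main enzymes of fatty acid synthesis, elongation and desaturation, the regulators of both, and a sterol carrier. Of these, 31 genes carried 51 probe sets on the Affymetrix rat expression array used, out of 14217 named genes and 31042 probe sets tested. Hmgcs1 had no probe set named in the annotation used here. Each gene was read by its brightest probe set, the one with the highest mean over all 19 arrays, and the others were used as a check. By role the measured members comprised 6 genes of the mevalonate arm, 11 of the squalene and sterol arm, 6 regulators and carriers, and 8 of the fatty acid arm.

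The rats were adult female Sprague-Dawley animals of no stated genotype, and each gave 1 ganglion and 1 array. Naive rats (5 arrays) had no surgery. The other groups were killed 7 days (7 arrays) or 14 days (7 arrays) after unilateral section of the dorsal and lateral cutaneous nerves belonging to T9, T10, T12 and T13, so that the T11 skin nerves stayed intact beside denervated skin and sprouted into it. The study presumed day 7 to be an initiation phase and day 14 a maintenance phase of this sprouting. No sham-operated group was analysed here, so surgery and denervation of neighbouring skin cannot be told apart.

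Cholesterol is built from acetyl-CoA through mevalonate, isoprenoid units, squalene and a chain of sterol intermediates. The enzymes are switched on together by the transcription factor SREBP2 (gene Srebf2) when membrane sterol falls, while SREBP1 (Srebf1) acts mainly on fatty acid synthesis. SCAP carries both factors out of the endoplasmic reticulum, and the INSIG proteins hold them back. In peripheral nerve the pathway is best known for supplying Schwann cells with myelin lipid, and growing axons also need membrane lipid.

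Promoter sequences of the module were examined because its members varied together across arrays, as described below. RefSeq windows (build GRCr8) of the 250 bases before the transcript start were found for 25 of the 32 members. The letters CCAAT, bound by the factor NF-Y that works beside the SREBPs, were present on either strand in 19 of these 25 members, against 34.3% of 27457 promoters of the same length. GGGCGG, the core of an Sp1 site, was present in 20 of 25, against 32.4%. The stringent sterol element TCACNCCAC was in 0 of 25, against 0.976% of all promoters, which says only that these letters were not in these windows. None of the motifs lies within another. The 4 windows printed here are those of Mvk and Ebp, which passed the adjusted threshold for a relation to sensory neuron transcripts, of Hsd17b7, which had the largest difference from naive at day 7, and of Nsdhl, whose brightest probe set had almost no such relation (r 0.11), although its second had a slope of 1.19. Each is written 5′ to 3′ in the direction of its gene, with CCAAT or its complement ATTGG in capitals.
Mvk, chr12:47819504-47819753, minus strand: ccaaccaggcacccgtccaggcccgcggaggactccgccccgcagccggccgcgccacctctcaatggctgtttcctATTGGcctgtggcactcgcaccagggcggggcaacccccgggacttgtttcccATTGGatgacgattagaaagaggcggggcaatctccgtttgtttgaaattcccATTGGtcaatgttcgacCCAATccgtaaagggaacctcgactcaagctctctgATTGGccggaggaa
Ebp, chrX:16971212-16971461, plus strand: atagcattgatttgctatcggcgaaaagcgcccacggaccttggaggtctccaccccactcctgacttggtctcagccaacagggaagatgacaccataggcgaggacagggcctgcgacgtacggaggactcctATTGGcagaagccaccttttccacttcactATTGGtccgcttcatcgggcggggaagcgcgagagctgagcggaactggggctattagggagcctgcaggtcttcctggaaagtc
Hsd17b7, chr13:84722755-84723004, minus strand: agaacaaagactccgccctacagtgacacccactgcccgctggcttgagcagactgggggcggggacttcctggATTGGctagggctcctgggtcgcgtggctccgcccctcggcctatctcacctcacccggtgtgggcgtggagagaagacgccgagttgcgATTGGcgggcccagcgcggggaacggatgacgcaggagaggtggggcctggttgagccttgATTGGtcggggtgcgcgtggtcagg
Nsdhl, chrX:155817110-155817359, plus strand: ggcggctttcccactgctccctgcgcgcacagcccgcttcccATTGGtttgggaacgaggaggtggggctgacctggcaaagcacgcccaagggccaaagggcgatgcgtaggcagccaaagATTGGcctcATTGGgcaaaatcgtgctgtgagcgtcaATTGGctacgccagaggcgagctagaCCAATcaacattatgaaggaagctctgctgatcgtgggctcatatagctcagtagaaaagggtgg
The Mvk window held 5 such boxes, that of Ebp 2, that of Hsd17b7 3 and that of Nsdhl 5. The windows of Acat2, Dhcr7, Fads2, Scd, Cyp51 and Scap held none. All of these but Scap had a slope above 0 on the sensory neuron mean at an unadjusted p under 0.05. A link between the boxes and variation across arrays was not tested.

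The tissue label was checked first. All 12 sensory neuron markers were measured, and their mean log2 level lay between 12.31 and 12.55 on the 19 arrays. Skeletal muscle markers (7 of 8 measured) were low on most arrays, with a median of 5.97 in naive, 6.57 at day 7 and 5.88 at day 14. They were high on naive replicate 1 (9.71), day 7 replicate 7 (9.43) and day 14 replicate 2 (7.97). Day 7 replicate 7 also had the highest sensory neuron mean of all arrays (12.55), and it stood apart for the module: it was the highest array of its group for 25 of 31 members (80.6%), against 26.1% of all genes, and the highest of all 19 arrays for 17 members.

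No member passed the adjusted threshold in any comparison between groups (limma, adjusted p under 0.05 over all probe sets). The threshold was passed by 0% of all probe sets for day 7 against naive, 0.139% for day 14 against naive and 0% for day 14 against day 7. In bulk ganglia, fewer cells of a type and less RNA per cell cannot be told apart. At day 7 the log2 difference from naive was above 0 for 19 of 31 members, with a median of 0.04, against a median of -0.00 over 14217 genes. At day 14 it was above 0 for 17 members, with a median of 0.01. Against day 7, the day 14 arrays were higher for 17 members and the median was 0.00.

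For the brightest probe set of all 31 members the 95% interval of the difference lay within 0.5 log2 units of 0 in each comparison. The lowest and highest bounds were -0.33 and 0.47 for day 7 against naive, -0.33 and 0.47 for day 14 against naive, and -0.31 and 0.28 for day 14 against day 7. The typical spread between rats of 1 group, a median SD of 0.14 log2 units over members, equalled that over all genes (0.14).

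At an unadjusted p under 0.05, 3 members were higher at day 7 than in naive (Mvk, Hsd17b7, Ebp), where 3.69% of all probe sets were, and 1 was lower (Sc5d), where 5.0% were. At day 14, 5 members were higher (Mvk, Tm7sf2, Ebp, Fads2, Hsd17b7), against 10.9% of all probe sets, and 1 was lower (Pmvk), against 8.79%. Between day 14 and day 7, 0 members were higher, against 7.11%, and 1 was lower (Pmvk), against 4.22%. For no member were the arrays of 2 groups fully separate, which was so for 0.441%, 1.82% and 0.187% of all probe sets in the 3 comparisons. Both comparisons with naive share the same 5 naive arrays. The day 7 count of 4 fell to 2 without naive replicate 2 or day 7 replicate 1. Of all probe sets, 3.41% and 3.05% were then higher, and 4.46% and 4.06% lower. The day 14 count of 6 fell to 3 without naive replicate 3 or day 14 replicate 5. In those fits 10.04% and 9.31% of all probe sets were higher, and 8.33% and 7.94% lower.

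**Figure D1:**
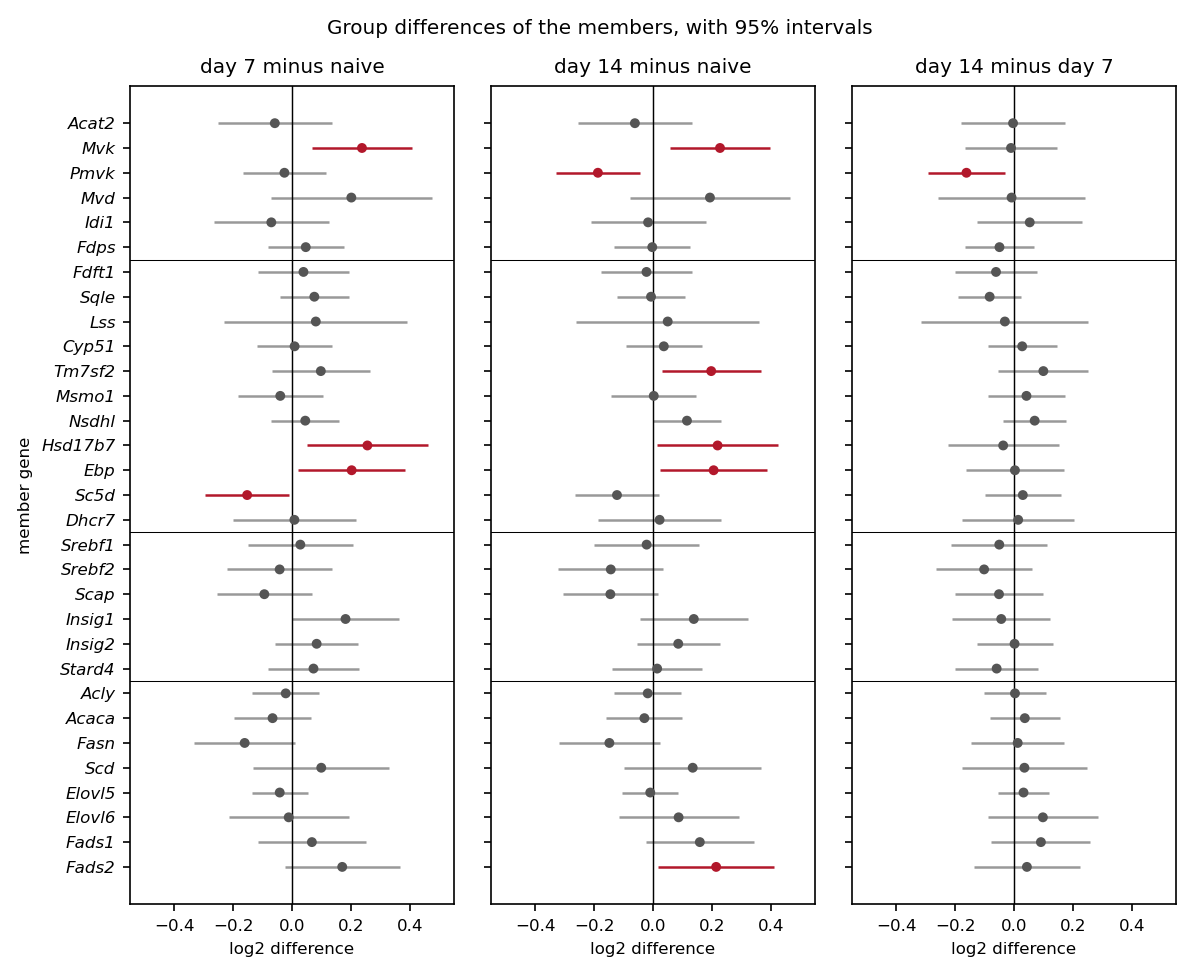
Log2 difference of each of the 31 measured members (dots) with its 95% interval (lines) for day 7 minus naive, day 14 minus naive and day 14 minus day 7. Members are grouped from the top as mevalonate arm, squalene and sterol arm, regulators and carrier, and fatty acid arm, and red marks an unadjusted p under 0.05. All intervals, each for the gene's brightest probe set, lie within 0.5 log2 units of 0.

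In the mevalonate arm, Mvk, the kinase that phosphorylates mevalonate, was the member with the smallest p at both times. Its log2 level on the naive arrays was 9.38, 9.65, 9.48, 9.42 and 9.68. At day 7 it ran from 9.63 through a median of 9.70 to 10.15, and at day 14 from 9.63 through 9.72 to 9.92. The upper naive arrays overlapped both operated groups, but 5 of 7 day 7 arrays and 6 of 7 day 14 arrays lay above every naive one. Naive rats averaged 9.52 ± 0.13 (SD, n = 5), against 9.76 ± 0.18 (SD, n = 7) for the day 7 rats. Those of day 14 averaged 9.75 ± 0.10 (SD, n = 7). The difference was 0.24 (SE 0.08) at day 7, with a limma p of 0.00853 and an adjusted p of 0.455. At day 14 it was 0.23 (SE 0.08), with a p of 0.0112 and an adjusted p of 0.154. Without day 7 replicate 7, which held the 10.15, the day 7 difference was 0.17. A second Mvk probe set gave 0.47 and 0.48 at the same times, larger than for any brightest probe set of the module. The third, dim at a mean of 5.68, gave -0.01 and 0.12.

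Pmvk, the next kinase, went the other way at day 14. Its naive values were 10.83, 10.81, 10.87, 10.64 and 10.66, against 10.41 to 10.68 with a median of 10.59 at day 14, where 5 of 7 arrays lay below every naive one. At day 7 it ran from 10.54 through 10.76 to 10.90, across the whole naive range. The difference from naive was -0.19 (SE 0.07) at day 14, with a limma p of 0.0122 and an adjusted p of 0.158. Against day 7 it was -0.16 (SE 0.06), with an adjusted p of 0.369. Consecutive steps of 1 linear pathway thus had differences of opposite sign at day 14.

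The remaining mevalonate genes did not differ beyond the spread between rats. Mvd, the decarboxylase that makes isopentenyl diphosphate, had a difference of 0.20 (SE 0.13) at day 7 and 0.19 (SE 0.13) at day 14, and its day 7 arrays were the most scattered of the arm, from 9.08 to 9.93. Acat2, the thiolase at the start of the pathway, read 10.92, 10.77, 10.98, 11.12 and 11.06 in naive, from 10.60 through 10.93 to 11.33 at day 7 and from 10.79 through 10.89 to 11.07 at day 14. Its difference was -0.06 at both times. Idi1, the isomerase of the isoprenoid units, gave -0.07 and -0.02. Fdps, which joins those units to farnesyl diphosphate, gave 0.05 and -0.00, with naive values of 12.58, 12.51, 12.50, 12.61 and 12.67.

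In the squalene and sterol arm, 4 of 11 members had an unadjusted p under 0.05 in either comparison with naive: Hsd17b7, Ebp, Tm7sf2 and Sc5d. At day 7, 2 were higher and 1 lower, where 3.69% and 5.0% of all probe sets were. At day 14, 3 were higher and 0 lower, where 10.9% and 8.79% were. Hsd17b7, a keto-sterol reductase, had naive values of 8.996, 9.13, 9.16, 9.06 and 9.52. It ran from 9.22 through 9.40 to 9.66 at day 7 and from 9.07 through 9.39 to 9.61 at day 14. Only naive replicate 5 reached the middle of the operated groups. The difference was 0.26 (SE 0.10) at day 7 (limma p 0.0177, adjusted p 0.488) and 0.22 (SE 0.10) at day 14 (p 0.0385, adjusted p 0.228). The second Hsd17b7 probe set did not share it, with 0.04 and -0.01.

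Ebp, the sterol isomerase, had tight naive values of 10.15, 9.996, 10.12, 10.01 and 10.15. At day 7 it ran from 10.15 through 10.22 to 10.66, and 6 of 7 arrays lay above every naive one. At day 14 it ran from 10.06 through 10.34 to 10.52, with 5 of 7 above. The difference was 0.20 (SE 0.09) at day 7 (limma p 0.0302, adjusted p 0.532) and 0.21 (SE 0.09) at day 14 (p 0.0279, adjusted p 0.203). It was 0.14 at day 7 without day 7 replicate 7. With the letters of the animal codes as a block the day 14 difference was 0.05.

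Tm7sf2, the sterol C14 reductase, had naive values of 11.02, 11.19, 11.13, 11.23 and 11.39. Its day 7 arrays ran from 11.12 through 11.34 to 11.42, and its day 14 arrays from 11.25 through 11.30 to 11.66. The 3 highest of all 19 arrays for this gene were day 14 arrays, and the groups overlapped. The day 14 difference was 0.20 (SE 0.08), with a limma p of 0.0229 and an adjusted p of 0.191, and 0.10 with the animal code block. Nsdhl, a sterol dehydrogenase of the demethylation complex, was at 11.21, 11.02, 11.04, 10.99 and 11.06 in naive, and from 10.99 through 11.13 to 11.21 at day 7. At day 14 it ran from 11.07 through 11.17 to 11.30, a difference from naive of 0.12 (SE 0.06, limma p 0.0512). Its second probe set gave -0.05.

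Sc5d, the sterol desaturase, was the single member lower at day 7 at an unadjusted p under 0.05. The brightest probe set read 11.46, 11.55, 11.48, 11.50 and 11.61 in naive. It ran from 11.19 through 11.36 to 11.63 at day 7, where 5 of 7 arrays lay below every naive one, and from 11.31 through 11.38 to 11.58 at day 14, where 6 of 7 did. The exceptions were day 7 replicate 7, the highest array of all, and day 7 replicate 6 and day 14 replicate 7, which lay within the naive range. The difference was -0.15 (SE 0.07) at day 7 (limma p 0.0364, adjusted p 0.544) and -0.12 (SE 0.07) at day 14. The other Sc5d probe sets gave 0.22 and 0.01 at day 7, and the mean over all of them reversed the sign, to 0.02. A direction for this gene is therefore not settled by these arrays.

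The remaining enzymes of the arm, by their brightest probe sets, had differences within 0.1 log2 units of 0 at both times. Sqle, the squalene epoxidase and a rate-limiting step, had naive values of 12.38, 12.31, 12.35, 12.46 and 12.40. It ran from 12.38 through 12.42 to 12.61 at day 7 and from 12.23 through 12.37 to 12.51 at day 14. Its differences from naive were 0.08 (SE 0.06) and -0.01 (SE 0.06), with limma p values of 0.188 and 0.907. Fdft1, which makes squalene, gave 0.04 and -0.02, and Lss, which closes the sterol ring, 0.08 and 0.05 with the widest intervals of the module. Cyp51, the lanosterol demethylase, gave 0.01 and 0.04, Msmo1 of the demethylation complex -0.04 and 0.00, and Dhcr7, which makes cholesterol in the last step, 0.01 and 0.02. The second Cyp51 probe set gave 0.14 and 0.22, with a limma p of 0.0225 at day 14. The second Lss probe set gave 0.03 and 0.12.

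Among the regulators, Srebf1 was level across the groups. Its naive values were 9.41, 9.53, 9.18, 9.48 and 9.41, its day 7 values 9.28 to 9.55 around a median of 9.43, and its day 14 values 9.07 to 9.57 around 9.45. The differences from naive were 0.03 (SE 0.09) and -0.02 (SE 0.09), with limma p values of 0.743 and 0.804. Srebf2 was uneven within naive rats, at 10.91, 11.01, 11.23, 11.61 and 11.13, and even at day 7 (11.02 to 11.26, median 11.19) and day 14 (10.97 to 11.09, median 11.07). Both operated groups lay inside the naive range, and the differences were -0.04 and -0.14. Scap, the escort of the SREBPs, was uneven in the same way, at 9.71, 9.68, 9.96, 10.14 and 9.66, with naive replicate 4 the highest for both genes. Its day 7 arrays ran from 9.52 through 9.75 to 9.88 and its day 14 arrays from 9.61 through 9.66 to 9.78.

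Insig1, itself a target of the SREBPs and the retention factor of the system, had naive values of 11.50, 11.23, 11.47, 11.05 and 11.42. It ran from 11.33 through 11.52 to 11.76 at day 7, with 4 of 7 arrays above every naive one. The difference of 0.18 (SE 0.09) had a limma p of 0.0511, and that at day 14 was 0.14 (SE 0.09, p 0.129). Insig2 gave 0.08 and 0.09, and Stard4, a carrier of sterol between membranes, 0.07 and 0.01. Stard4 read 10.10, 9.96, 10.05, 9.89 and 10.05 in naive, from 9.96 through 10.06 to 10.19 at day 7 and from 9.77 through 10.03 to 10.22 at day 14, so that all groups overlapped. By its brightest probe set, no regulator reached an unadjusted p of 0.05 in a comparison between groups. The brightest Scap probe set gave -0.14 at day 14 against naive. The second, dim at a mean of 5.22, gave 0.26, with a limma p of 0.00454.

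In the fatty acid arm, Fasn, the synthase that makes palmitate, had naive values of 10.71, 11.01, 10.79, 11.14 and 11.004. It ran from 10.55 through 10.80 to 10.94 at day 7 and from 10.57 through 10.83 to 10.91 at day 14. Every operated group lay within or below the naive range. The differences were -0.16 (SE 0.08, limma p 0.066) and -0.15 (SE 0.08, p 0.0883), and the second probe set gave -0.02 and 0.06. Without day 7 replicate 7 the day 7 difference was -0.19, with an unadjusted p of 0.035.

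Scd, which puts the first double bond into fatty acids, had naive values of 11.30, 11.37, 11.13, 11.71 and 11.40, from 11.19 through 11.48 to 11.87 at day 7 and from 11.33 through 11.41 to 11.77 at day 14. The groups overlapped almost fully, with differences of 0.10 (SE 0.11) and 0.14 (SE 0.11). Fads2, the desaturase that starts the synthesis of long polyunsaturated fatty acids, was at 8.10, 8.21, 8.11, 8.16 and 8.31 in naive. It ran from 8.08 through 8.33 to 8.74 at day 7 and from 8.24 through 8.35 to 8.70 at day 14, where 5 of 7 arrays lay above every naive one. The day 14 difference was 0.21 (SE 0.09), with a limma p of 0.0333 and an adjusted p of 0.215. Its partner desaturase Fads1 ran from 10.97 to 11.37 in naive, from 11.06 through 11.21 to 11.54 at day 7 and from 11.20 through 11.26 to 11.56 at day 14, and gave 0.07 and 0.16 (SE 0.09, p 0.0869 at day 14).

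The enzymes before and after the synthase were level. Acly, which makes cytosolic acetyl-CoA, gave -0.02 at both times, and Acaca, which makes malonyl-CoA, -0.07 and -0.03. Acaca read 11.10, 11.30, 11.23, 11.37 and 11.29 in naive, from 11.06 through 11.19 to 11.34 at day 7 and from 11.10 through 11.24 to 11.34 at day 14. The elongases Elovl5 and Elovl6 gave -0.04 and -0.01 at day 7, and -0.01 and 0.09 at day 14. For day 14 against day 7 all 8 fatty acid genes had a difference above 0, but these were small, between 0.00 and 0.10, and 0 of 8 had a p under 0.05.

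Within animal code series the group differences kept their sign for Mvk, Hsd17b7 and Ebp. The letters AJ were shared by 2 naive, 5 day 7 and 2 day 14 rats, and AK by 3 naive and 2 day 7 rats, while AI marked 5 day 14 rats alone. What these letters stand for is not stated. The day 7 difference of Mvk was 0.35 within AJ and 0.12 within AK, that of Hsd17b7 was 0.37 and 0.14, and that of Ebp was 0.19 and 0.14. Over the 31 members the median day 7 difference was 0.06 within AJ and -0.02 within AK. With the letters as a block, 2 members had an unadjusted p under 0.05 at day 7 and 0 at day 14. Of all probe sets, 2.50% were then higher and 3.13% lower at day 7, and 3.14% and 3.29% at day 14.

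**Figure D2:**
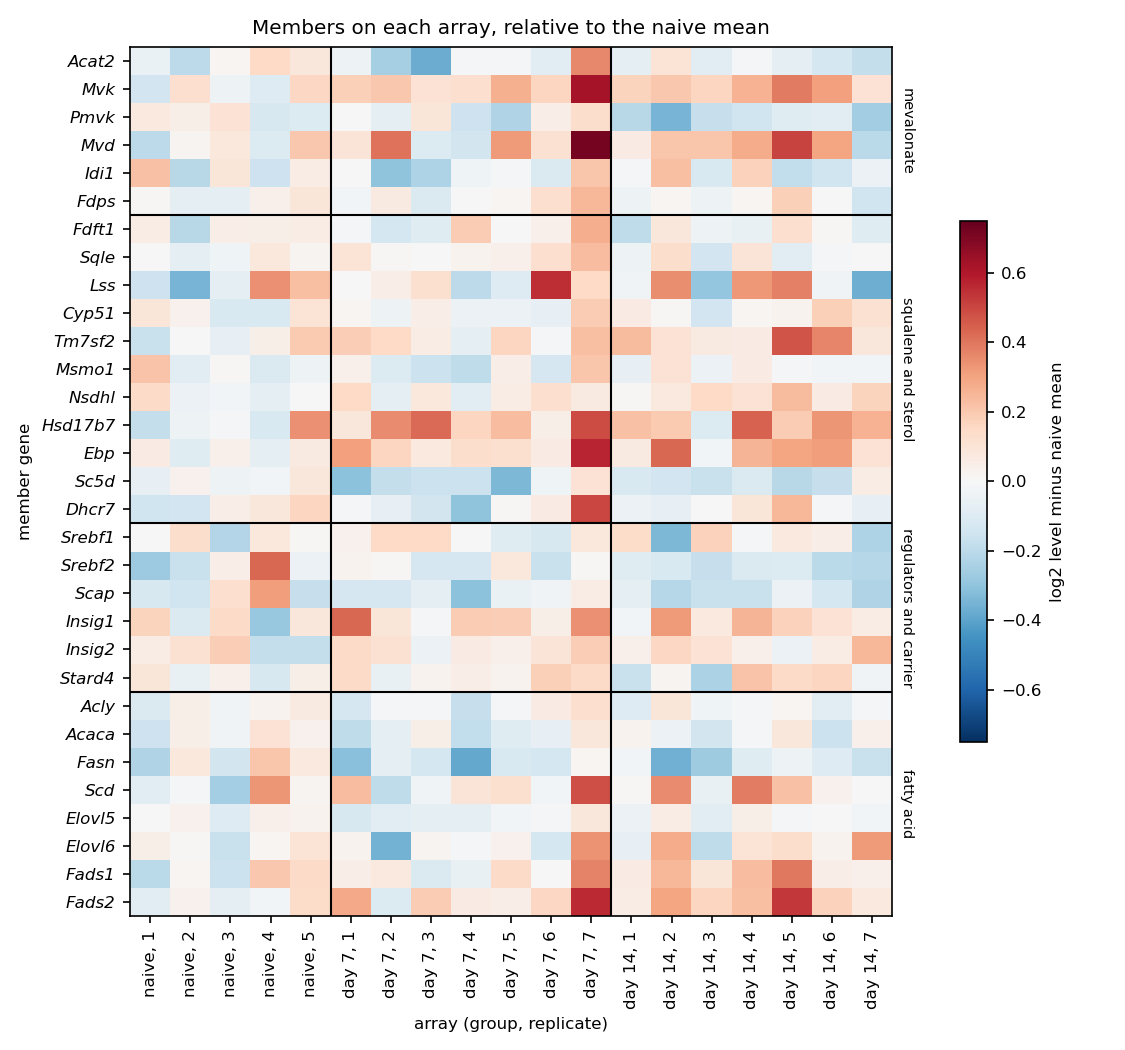
Log2 level of each of the 31 members on each of the 19 arrays, minus the mean of the 5 naive arrays (red higher, blue lower). Rows are members by role and columns are arrays by group. Day 7 replicate 7 lies above the naive mean for 31 of 31 members, and it was the highest of its group for 25.

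Further genes of lipid metabolism were taken from lists beyond the module. Of 23 other synthesis genes, 0 were higher and 1 lower at an unadjusted p under 0.05 at day 7, against 3.69% and 5.0% of all probe sets. The 1 lower gene was Mcat, a mitochondrial transacylase (-0.25, SE 0.11). At day 14, 0 were higher and 2 lower, against 10.9% and 8.79%. The latter were Oxsm, the mitochondrial ketoacyl synthase (-0.22, SE 0.07), and Hacd1, a dehydratase of fatty acid elongation (-0.23, SE 0.09). As shares of this list these were 4.35% and 8.70%, near those of all probe sets. Of 22 genes of sterol sensing, uptake and efflux, Erlin2, which helps to degrade sterol sensors, was lower at day 7 (-0.15, SE 0.05, limma adjusted p 0.454). Its naive and day 7 arrays did not overlap, which was so for 0.441% of all probe sets. Apod, a lipid-carrying lipocalin of nerve, was higher at day 14, by 0.38 against naive (SE 0.10, adjusted p 0.089) and by 0.39 against day 7 (SE 0.09, adjusted p 0.261). Of 8 genes of myelin sphingolipid synthesis, Fa2h, which hydroxylates myelin fatty acids, was lower at day 7 (-0.38, SE 0.11, adjusted p 0.416). Markers of other cells moved between the same groups. At day 7, 11 of 12 myelin proteins lay below naive (3 at an unadjusted p under 0.05, beside 5.0% of all probe sets). At day 14 against day 7, 12 of 12 lay above 0 (7 at that p). There 5 of 8 fibroblast markers were higher at that p, beside 7.11% of all probe sets. Their part in the Apod and Fa2h differences was not tested. Apod had the smallest p of these lists in both comparisons, and it did not pass the adjusted threshold.

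The relation to myelin was measured within groups. The myelin mean was taken over 12 myelin proteins, and it ran from 10.25 through 10.47 to 10.63 in naive, from 9.85 through 10.22 to 10.53 at day 7 and from 10.10 through 10.55 to 10.71 at day 14. Each member was then fitted against that mean with the groups as terms, so that a shift between groups did not enter. Of the members 0 passed the adjusted threshold, against 0.203% of all probe sets. In simulated data this fit recovered 12% of slopes of 0.5 and 75% of slopes of 1. Slopes near 0.5 could thus be missed. At an unadjusted p under 0.05, 1 member had a slope above 0 (Srebf2), against 6.61% of all probe sets, and 1 a slope below 0 (Stard4), against 10.8%. The median within-group Pearson r over 31 members was 0.08, and over 14217 genes it was -0.04. Leaving out day 7 replicate 7, these medians were -0.06 and -0.06, and r was above 0 for 14 of 31 members in place of 19.

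Srebf2 had the highest r with the myelin mean, at 0.51 (permutation p 0.00353) with a Spearman rho of 0.51 (permutation p 0.0293), and 0.54 without the 2 arrays farthest from the median. Its slope was 0.40 (SE 0.17, limma adjusted p 0.242). The slope was 1.74 within naive arrays, 0.26 within day 7 and 0.15 within day 14. It was 0.26 without naive replicate 4, the array with the highest Srebf2 level. The other probe set of Srebf2, dim at a mean of 4.39, had a slope of -0.41. With the 3′ minus 5′ signal of the array, a measure of RNA quality, as a covariate the slope of the brightest probe set was 0.14. Its unadjusted limma p was then 0.319.

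Stard4 ran against the myelin mean, with r -0.60 (permutation p 0.00801), rho -0.61 (permutation p 0.013) and -0.56 without the 2 farthest arrays. Its slope was -0.39 (SE 0.14, limma adjusted p 0.178), and it was below 0 within each group. With the fibroblast mean as a covariate the slope was -0.21, with an unadjusted p of 0.294. The other Stard4 probe sets had slopes of 0.10 and -0.09, the first of them dim at a mean of 5.38. Next below 0 stood Pmvk (r -0.44) and Nsdhl (r -0.29), and next above 0 Acaca (0.47), Fads1 (0.39), Acat2 (0.27) and Scap (0.26). The permutation p of r was 0.0857 for Pmvk and 0.058 for Acaca, and over 0.1 for the other 4.

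All 8 fatty acid genes had r above 0 with the myelin mean, with a median of 0.23, while 4 of 11 genes of the squalene and sterol arm did, with a median of -0.08. With day 7 replicate 7 left out these were 6 of 8 with a median of 0.15, and 3 of 11 with a median of -0.16. As array means, the arms had r of 0.09 (mevalonate), -0.07 (squalene and sterol), 0.03 (regulators and carrier) and 0.30 (fatty acid) with the myelin mean over the 19 arrays, and of -0.13, -0.28, -0.09 and 0.22 without day 7 replicate 7. Lists beyond the module were set against the same mean, on which 6.61% of all probe sets had a slope above 0 at an unadjusted p under 0.05. Of 8 genes of myelin sphingolipid synthesis, 3 had a slope above 0 at an unadjusted p under 0.05: Cers2, a ceramide synthase of very long chains (r 0.71), Fa2h (r 0.62), and Ugt8, which makes galactosylceramide (r 0.54). Of 22 genes of sterol sensing, uptake and efflux 8 did, led by Mbtps1, the protease that makes the first cut in the SREBPs (r 0.76, limma adjusted p 0.068), and Mylip, a ligase that degrades lipoprotein receptors (r 0.60). Fibroblast markers moved with the myelin mean as well, 6 of 8 with a slope above 0 at an unadjusted p under 0.05. With the fibroblast mean as a covariate, 0 of 31 members had an unadjusted p under 0.05 against the myelin mean. Of all probe sets, 3.06% then had a slope above 0 at that p and 3.45% a slope below 0. Under that covariate the slope changed from 0.44 to 0.59 for Cers2, from 0.62 to 0.47 for Mbtps1 and from 0.63 to 0.12 for Mylip, whose unadjusted p was then 0.617.

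**Figure D3:**
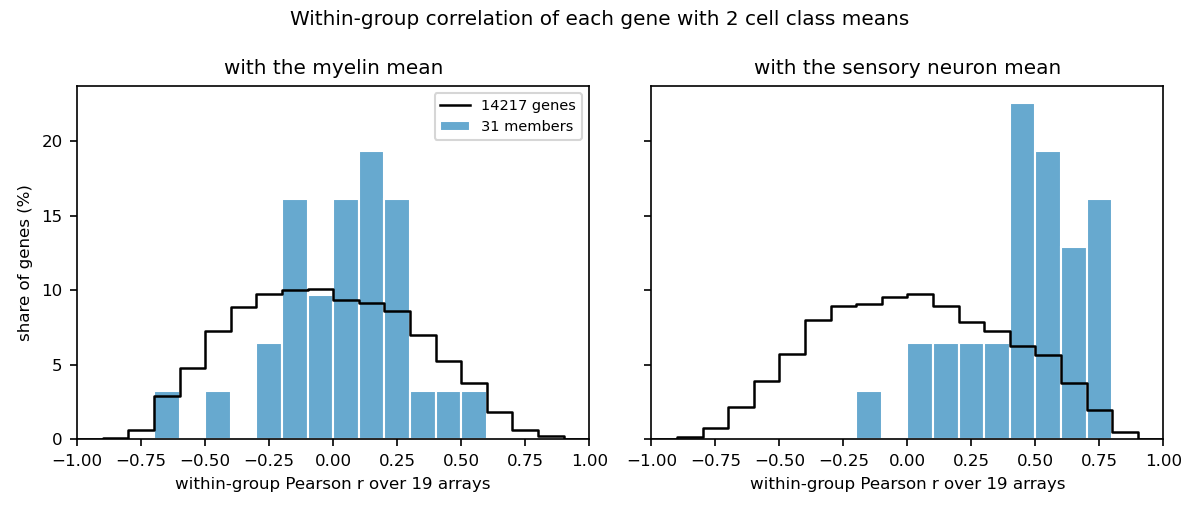
Share of genes by their within-group Pearson r with the myelin mean (left) and with the sensory neuron mean (right) over 19 arrays, in bins of 0.1. Bars are the 31 members and the black line is all 14217 genes. The members centre near 0 on the left (median 0.08) and to the right of all genes on the right (median 0.50 against 0.02). With day 7 replicate 7, which is included here, left out, the member medians are -0.06 and 0.25.

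The members varied together. Over the 465 pairs of members the median within-group r was 0.31 and 83.4% of pairs were above 0, against a median of 0.01 and 50.8% over all pairs of genes. Day 7 replicate 7 carried much of this, and without it the median over pairs of members was 0.14 with 66.5% above 0. Within the fatty acid arm the median was 0.53 with that array and 0.41 without it. It was 0.33 and 0.17 within the squalene and sterol arm, and 0.30 and 0.03 within the mevalonate arm. The regulators and carrier did not follow each other, with a median of -0.20. The means of the squalene and sterol arm and of the fatty acid arm had r of 0.80, and 0.63 without day 7 replicate 7.

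The members were also set against the mean of the 12 sensory neuron markers, a comparison added after the data had been seen. That mean covered a span of only 0.24 log2 units, from 12.37 to 12.42 in naive, from 12.34 to 12.55 at day 7 and from 12.31 to 12.46 at day 14. The markers themselves followed it loosely. Of the 12 markers, 6 had a slope above 0 on their own mean at an unadjusted p under 0.05. Their median r was 0.56 and the lowest -0.11. Of the 12 myelin proteins, 10 had such a slope on the myelin mean, with a median r of 0.82. Whether the neuron mean tracks neuron content was not tested. Against the neuron mean, 18 of 31 members had a slope above 0 at an unadjusted p under 0.05 and 0 a slope below 0, while 10.8% and 8.45% of all probe sets did. The median r was 0.50 over members and 0.02 over all genes, and 30 of 31 members were above 0, as were 7377 of 14217 genes. The median without day 7 replicate 7 was 0.25 over members and -0.01 over all genes, with 25 of 31 members above 0. Past the adjusted threshold stood 3 members, where 2.04% of all probe sets did. Whether a member's relation to neuron transcripts differs from its relation to myelin was not tested.

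Those 3 were Elovl6, Ebp and Mvk. Elovl6, which extends palmitate, had naive values of 11.89, 11.85, 11.67, 11.86 and 11.95, from 11.49 through 11.86 to 12.18 at day 7 and from 11.65 through 11.95 to 12.16 at day 14. Its r with the neuron mean was 0.77 (permutation p 0.00063), its rho 0.62 (permutation p 0.00479) and its slope 2.49 (SE 0.54, limma adjusted p 0.0275). The second Elovl6 probe set gave a slope of 2.87. For Ebp, r was 0.76 (permutation p 0.00491), rho 0.58 (permutation p 0.0122) and the adjusted p 0.0369, and for Mvk, r was 0.73 (permutation p 0.00414), rho 0.62 (permutation p 0.00538) and the adjusted p 0.049. Cyp51 (r 0.75, adjusted p 0.0695) and Scd (r 0.63, adjusted p 0.082) came next.

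The relation leaned on day 7 replicate 7 (12.55), at the top of the neuron scale. The calls past the adjusted threshold leaned also on day 14 replicate 3 (12.31), at the bottom. Without both, r fell to 0.49 for Elovl6, 0.20 for Ebp, 0.49 for Mvk and 0.36 for Cyp51. Without day 7 replicate 7 alone, 5 members kept an unadjusted p under 0.05 and a slope above 0, where 6.48% of all probe sets did. Those 5 were Cyp51, Hsd17b7, Ebp, Stard4 and Elovl6. Past the adjusted threshold stood 0 members, and 17 of all 31042 probe sets against 632 in the full fit. Without day 14 replicate 3 alone, 15 members kept such a p and slope, where 7.53% of all probe sets did. The adjusted threshold was then passed by 0 members and by 0 of all probe sets, with an adjusted p of 0.14 for Elovl6 and 0.161 for Ebp. Without naive replicate 5 or day 14 replicate 4, 1 member passed it (392 and 314 of all probe sets). Skeletal muscle markers moved with the neuron mean too, with r between 0.40 and 0.52. At an unadjusted p under 0.05, 5 of 7 had a slope above 0, beside 10.8% of all probe sets. Without the 3 arrays highest in muscle, the same 5 members had a slope above 0 at that p, beside 6.28% of all probe sets. Macrophage markers ran the other way, with r below 0 for 10 of 10. For 4 the slope was below 0 at an unadjusted p under 0.05, beside 8.45% of all probe sets. Day 7 replicate 7 is 1 of the 3 muscle-high arrays, and the part of muscle or macrophage RNA was not tested apart from it.

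As a description over the 19 arrays, the arm means had r with the neuron mean of 0.71 (mevalonate), 0.82 (squalene and sterol), 0.44 (regulators and carrier) and 0.76 (fatty acid). Without day 7 replicate 7 these were 0.32, 0.64, 0.08 and 0.54. At an unadjusted p under 0.05, 5 of 6 mevalonate genes, 7 of 11 sterol genes and 5 of 8 fatty acid genes had a slope above 0, and 1 of 6 regulators and carriers did, Stard4, beside 10.8% of all probe sets. These counts without day 7 replicate 7 were 0 of 6, 3 of 11, 1 of 8 and 1 of 6, beside 6.48%. Srebf1 (r -0.14), Srebf2 (0.02), Scap (0.16) and Insig2 (0.00) had little relation to it, and Insig1 had r 0.34. Stard4 was the member with the widest gap, at -0.60 with myelin and 0.58 with neurons.

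Within the rats with the letters AJ (9 arrays), the median r of the members with the neuron mean was 0.71, and 0.31 without day 7 replicate 7. Elovl5, an elongase of polyunsaturated fatty acids, had the highest r over all 19 arrays (0.79, permutation p 0.00022, rho 0.74, limma adjusted p 0.143), and r stayed at 0.61 without the 2 farthest arrays. Outside the module, 9 of 23 other synthesis genes had a slope above 0 and 1 a slope below 0 at an unadjusted p under 0.05. Of all probe sets 10.8% and 8.45% did. The adjusted threshold, passed by 2.04% of all probe sets, was passed by 2 of these genes. They were Elovl2, which elongates polyunsaturated fatty acids (r 0.82, limma adjusted p 0.0181), and Hacd2, a dehydratase of the elongation cycle (r 0.82, adjusted p 0.0204). Both calls were lost without day 7 replicate 7 (limma adjusted p 0.239 and 0.132) and without day 14 replicate 3 (0.0947 and 0.175). Of all 31042 probe sets, 17 and 0 passed in those fits, against 632 in the full fit. Of the 22 genes of sterol sensing, uptake and efflux 2 had a slope above 0 at an unadjusted p under 0.05. Of the 8 of myelin sphingolipid synthesis 1 did, Degs1 (r 0.61), which makes ceramide. As shares of these lists these were 9.09% and 12.5%, near the 10.8% of all probe sets.

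**Figure D4:**
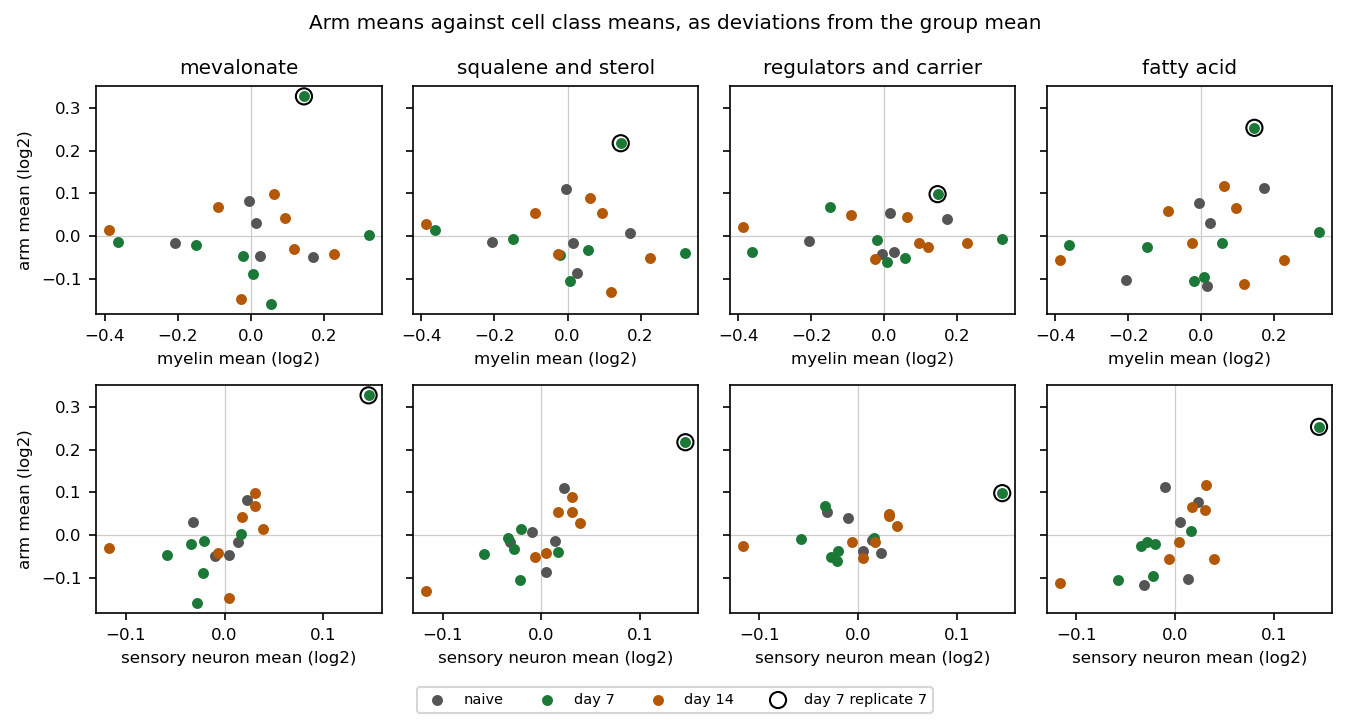
Mean log2 level of each arm of the module against the myelin mean (top) and the sensory neuron mean (bottom), each as the deviation from its group's mean, for naive (grey), day 7 (green) and day 14 (orange) arrays. The circled point is day 7 replicate 7. In the bottom row r was 0.71, 0.82, 0.44 and 0.76 from left to right, and 0.32, 0.64, 0.08 and 0.54 without the circled array.

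Adipocyte markers, which could carry fatty acid genes into a ganglion sample, were checked on the same arrays. Of 10 listed, 9 were measured, and their mean ran from 5.99 to 6.59 in naive, from 5.78 to 6.89 at day 7 and from 6.13 to 6.88 at day 14. Its r with the fatty acid arm was -0.17 over the 19 arrays and 0.09 without day 7 replicate 7. The part of adipocyte RNA in the results was not tested.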

How the data were processed

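RNA from single T11 ganglia (100 ng, 2 rounds of amplification) was hybridised to Affymetrix rat expression arrays. The deposited values are log2 RMA signals, and the authors used RMA and limma, per the submitters' processing notes; no source used here gives their versions. A further naive array, removed by the submitters after quality control, was not analysed here. Of 31099 probe sets, 57 controls were left out, and the platform annotation gave 20826 of the remaining 31042 a single symbol, 436 several and 9780 none. The brightest probe set stood for each gene. All 3 groups were fitted together with limma 3.58.1 (lmFit and eBayes, R 4.3.3), p-values were Benjamini-Hochberg adjusted over all 31042 probe sets, and calls used 0.05. Within-group relations to the myelin or neuron mean used the same fit with that mean as a covariate, and r and rho used residuals from group means with 100000 permutations within groups. The procedure was tested on simulated data with 200 probe sets changed. A log2 change of 0.5 was recovered for 78%, 86.5% and 89.5% of them in the 3 group comparisons. A slope of 0.5 on the myelin mean was recovered for 12%, with 2 false calls, and a slope of 1 for 75%, with 41. Slopes on the neuron mean were not simulated. By rule, array values were given for Sqle, Fasn, Scd and Srebf1, the 4 members with the smallest p per group comparison, and the 5 highest and 3 lowest by r with myelin, and from other lists up to 4 genes per comparison. Fads2, Insig1, Elovl5, Elovl6, Cyp51 and the genes outside the module that followed neuron transcripts were added after their values were seen. Precision is limited by the number of arrays. Members and lists were chosen with earlier results of these data known. Promoter windows came from RefSeq (GRCr8). Replicate numbers did not pair the arrays. Alternatives were block and covariate fits, renormalization, other probe sets and leaving out arrays.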

Additional observations from a re-analysis of the deposited data

Results flagged for a closer look

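Of 117 groups of values examined, 12 held an array whose gap to its nearest neighbour was large for its group (Dixon's 95% criterion), where chance gives about 5.85. Day 7 replicate 7 accounted for 7 of them: Mvk (10.15), Cyp51 (12.49), the means of the mevalonate arm (10.97), the squalene and sterol arm (11.28) and the fatty acid arm (11.51), the sensory neuron mean (12.55) and the skeletal muscle mean (9.43), each the highest of its group. The sensory neuron mean was low on day 14 replicate 3 (12.31). Fdft1, the squalene synthase, was low on naive replicate 2 (11.24), and Sc5d was high on day 14 replicate 7 (11.58). The skeletal muscle mean was high on naive replicate 1 (9.71) and on day 14 replicate 2 (7.97).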

How the results depend on the processing

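No member passed the adjusted threshold in a group comparison or against the myelin mean under any alternative run (32 for each group comparison, 37 for myelin), and the smallest adjusted p was 0.247 for day 7 against naive, 0.0896 for day 14 against naive, 0.196 for day 14 against day 7 and 0.0909 for myelin. Counts at an unadjusted p under 0.05 moved more. With the animal code letters as a block they were 2, 0 and 0 members in the 3 group comparisons, against 4, 6 and 1. Of all probe sets, 2.50%, 3.14% and 2.55% were then higher and 3.13%, 3.29% and 2.42% lower. The day 14 against day 7 count was 2 after quantile normalization again (5.52% of all probe sets higher and 4.74% lower). It was 0 with the adipocyte mean as a covariate (7.12% and 3.90%) and 0 without the 3 arrays highest in muscle (6.17% and 3.81%). Leaving out each array gave 2 to 6 members for day 7 and 3 to 7 for day 14 against naive. Over those fits 2.59% to 4.75% of all probe sets were higher at day 7, and 3.39% to 7.16% lower. At day 14 these shares were 7.74% to 12.46% and 7.25% to 10.02%. The cause was not tested.

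Against the myelin mean (2 members), the count was 8 with Mag alone as the myelin measure. There 5.39% of all probe sets had a slope above 0 at an unadjusted p under 0.05, and 7.38% a slope below 0. The same shares follow in brackets. The count was 1 with the replicate block (2.52% and 1.80%) and 1 with the 3′ minus 5′ signal as a covariate (4.43% and 6.11%). It was 0 with the fibroblast mean as a covariate (3.06% and 3.45%) and 0 with the mean of all probe sets per gene (7.08% and 10.4% of genes). It was 4 within naive arrays alone (7.53% and 5.23%), 1 within day 7 (4.27% and 4.60%) and 0 within day 14 (3.51% and 3.61%). It was 1 without the muscle-high arrays (4.43% and 7.47%), and 1 (without naive replicate 1 or 4) to 3 (without day 7 replicate 7 or day 14 replicate 3) on leaving out each array. Mag alone was chosen after seeing the data, and 1 other planned choice of myelin measure was not run.

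Against the neuron mean (18 members, 3 past the adjusted threshold), the counts were 5 and 0 with the replicate block. There 6.36% of all probe sets had a slope above 0 at an unadjusted p under 0.05, and 6.10% a slope below 0. The same shares follow in brackets. The counts were 7 and 0 after quantile normalization again (6.40% and 5.91%), and 5 and 0 without the muscle-high arrays (6.28% and 5.05%). Within naive arrays alone they were 0 and 0 (2.47% and 2.35%), and within day 14 arrays alone 3 and 0 (6.42% and 5.50%). Past the adjusted threshold stood 1 member with no group terms, where 198 of 31042 probe sets did, against 632 in the main fit. With the animal code block 0 members did (86 probe sets), and with the muscle mean as a covariate 0 (150 probe sets). With the fibroblast mean as a covariate 5 did (1489 probe sets), and within day 7 arrays alone 0 (0 probe sets). The probe sets past it were 0 with the replicate block, 19 after quantile normalization again and 6 without the muscle-high arrays. Leaving out each array gave 5 to 19 members, where 6.48% to 11.6% of all probe sets had a slope above 0 at that p. Past the adjusted threshold stood 0 to 3 members. It was 0 without day 7 replicate 7 (17 of all probe sets) or day 14 replicate 3 (0 of all probe sets). Same-numbered arrays did not deviate together: 3 of 17 pairs had r over 0.1 (range -0.26 to 0.33), so the replicate block rests on a shared number only.

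With the mean of all probe sets per gene, 2 values changed sign: Sc5d at day 7, from -0.15 to 0.0249, and the slope of Srebf2 on the myelin mean, from 0.40 to -0.00558. The second Srebf2 probe set in that mean was dim, at 4.39. The precision is that of 5 to 7 arrays a group.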
